A study of Pan paniscus with 11 samples.

Results

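Proteoglycans are core proteins that carry long sulfated sugar chains, and 8 of their genes were described here across cultured fibroblasts, the cells that make the matrix of connective tissue, of the bonobo (Pan paniscus). They are the small leucine-rich proteoglycan genes LUM, DCN, BGN, OGN and FMOD, the large hyaluronan-binding proteoglycan genes VCAN and ACAN, and the cell-surface glypican gene GPC3. Members were found by gene symbol in the probe annotation of the human Affymetrix array, not by their values. Of the 8 genes, 6 had probe sets, 10 probe sets in all of 12625 on the array: 3 each for VCAN and ACAN and 1 each for LUM, BGN, FMOD and GPC3. No probe set carried the symbol DCN or OGN, so decorin and osteoglycin were not analysed here.

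The study measured 11 cultures with 1 array each. A culture of male line 1 (animal aged 4 years) was taken at 50% confluence, that is with that share of the dish covered by cells, and was set against the standard culture of the same line. The donors of male lines 1 to 5 were 4, 2, 12, 17 and 19 years old and those of female lines 1 to 5 were 9, 2, 4, 20 and 20 years old; these 10 cultures were the standard ones. The labels called all animals normal. Lines were numbered in accession order, so equal numbers pair nothing. A line is 1 culture of 1 animal, and the body site, passage number and confluence of the standard cultures were not given in the sources used here. Values are intensities on a linear scale, raised to a floor of 100, and a log2 value is the log2 of that floored intensity.

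Small leucine-rich proteoglycans are horseshoe-shaped proteins that bind collagen fibrils and control their thickness and spacing, and several also bind growth factors. Versican and aggrecan attach to hyaluronan and form hydrated gels, versican in loose connective tissue and around migrating cells, aggrecan chiefly in cartilage. Glypican-3 is tied to the outer membrane by a lipid anchor and modulates hedgehog, Wnt and growth factor signalling. Fibroblasts of connective tissues are a main source of biglycan, lumican and versican.

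Of 20 listed fibroblast marker genes, 19 were on the array, and all 11 cultures read above the floor for these 19. The sex labels were checked with the Y-linked gene RPS4Y1, which read 1251 to 1965 in the male lines and 100, the floor, in all 5 female lines. Of 12 cartilage markers, which bear on ACAN, 2 were above the floor in all 11 cultures, the median intensity was 100, and the 4 genes COL9A3, MATN3, CNMD and CHAD were at the floor throughout. Male line 4 had the highest ratio of 3′ to 5′ signal for ACTB (2.27, against 0.853 to 1.44 in the other standard lines), and the 50% confluence culture had 18S ribosomal RNA control signals of 1508 to 2611, against 100 in the standard culture of male line 1 and at most 313 in any standard line.

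Biglycan was abundant by its own scale in all lines and varied more than most genes. BGN, the X-linked gene of a small leucine-rich proteoglycan with a pair of chondroitin or dermatan sulfate chains, had intensities of 14568, 13992, 8754, 16460 and 12936 in male lines 1 to 5. Female lines 1 to 5 read 2764, 18602, 23016, 12110 and 5202. The male lines lay within the wider range of the female lines, which held both the highest (female line 3) and the lowest (female line 1) value. The highest line stood 8.33-fold over the lowest, and its log2 intensity had an SD of 0.92 over the 10 lines, against a median of 0.43 over 5370 genes, of which 167 had a larger SD. With 1 array per line, the order of neighbouring lines has no error estimate, here and for the genes that follow.

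Lumican varied least of the measured members. LUM encodes a small leucine-rich proteoglycan with keratan sulfate chains that spaces collagen fibrils, for which it is best known in the cornea. It read 806, 1365, 586, 788 and 960 in male lines 1 to 5, against 313, 608, 608, 834 and 890 in female lines 1 to 5. Female line 1 was lowest, as it was for BGN, and male line 2 was highest. The SD was 0.56 on the log2 scale, and 1204 of 5370 genes had a larger one.

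Fibromodulin signal was seen in few cultures. FMOD, which encodes a keratan sulfate proteoglycan of tendon and cartilage related to lumican, read 382 in female line 1 and 137 in male line 1. It was at the floor of 100 in the other 8 standard lines and in the 50% confluence culture. Its probe set was above the floor in 2 of 11 arrays and was therefore not tested. Female line 1 thus had the highest FMOD value together with the lowest BGN and LUM values.

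Versican was measured by 3 probe sets that ranked the lines in nearly the same way. VCAN encodes the large chondroitin sulfate proteoglycan of loose connective tissue. On probe set 38111_at, the one with the highest mean, male lines 1 to 5 read 3612, 2189, 2600, 3059 and 2023, and female lines 1 to 5 read 3316, 5154, 5337, 1931 and 961. Female lines 2 and 3 were highest and female line 5 lowest on all 3 probe sets. Over the 10 lines the probe sets correlated pairwise with Pearson r of 0.93, 0.94 and 0.97 (Spearman rho 0.88, 0.90 and 0.99). These are descriptions of 1 set of arrays, whose scaling the probe sets share. The SD of 38111_at was 0.73 on the log2 scale.

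Aggrecan was low and uneven across lines. ACAN encodes the main cartilage proteoglycan. On probe set 39207_r_at, which stood for the gene, male lines 1 to 5 read 813, 370, 124, 306 and 353, and female lines 1 to 5 read 250, 428, 279, 100 and 1077. Female line 5 was highest and female line 4, from an animal of the same age, was at the floor on all 3 probe sets. The other probe sets, 39206_s_at and 38965_at, correlated with it at r of 0.93 and 0.78 (rho 0.89 and 0.78). The SD was 1.05 log2, exceeded by 98 of 5370 genes. The cartilage markers did not have this order: their summed intensity was 1842 in female line 5 and 3186 in female line 4, with a range of 1878 to 2698 in male lines and 1610 to 3479 in female lines. The part of the cartilage markers in the ACAN values was not tested.

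Glypican-3 was the most variable member. GPC3, also X-linked and best known for a human overgrowth syndrome when lost, read 2166, 636, 576, 1623 and 249 in male lines 1 to 5. It read 651, 1275, 1844, 2556 and 176 in female lines 1 to 5. Female line 4 was highest and female line 5 lowest, the reverse of ACAN, and both came from animals aged 20 years. The highest line was 14.5-fold over the lowest. The SD of 1.32 log2 was exceeded by 29 of 5370 genes.

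**Figure D1:**
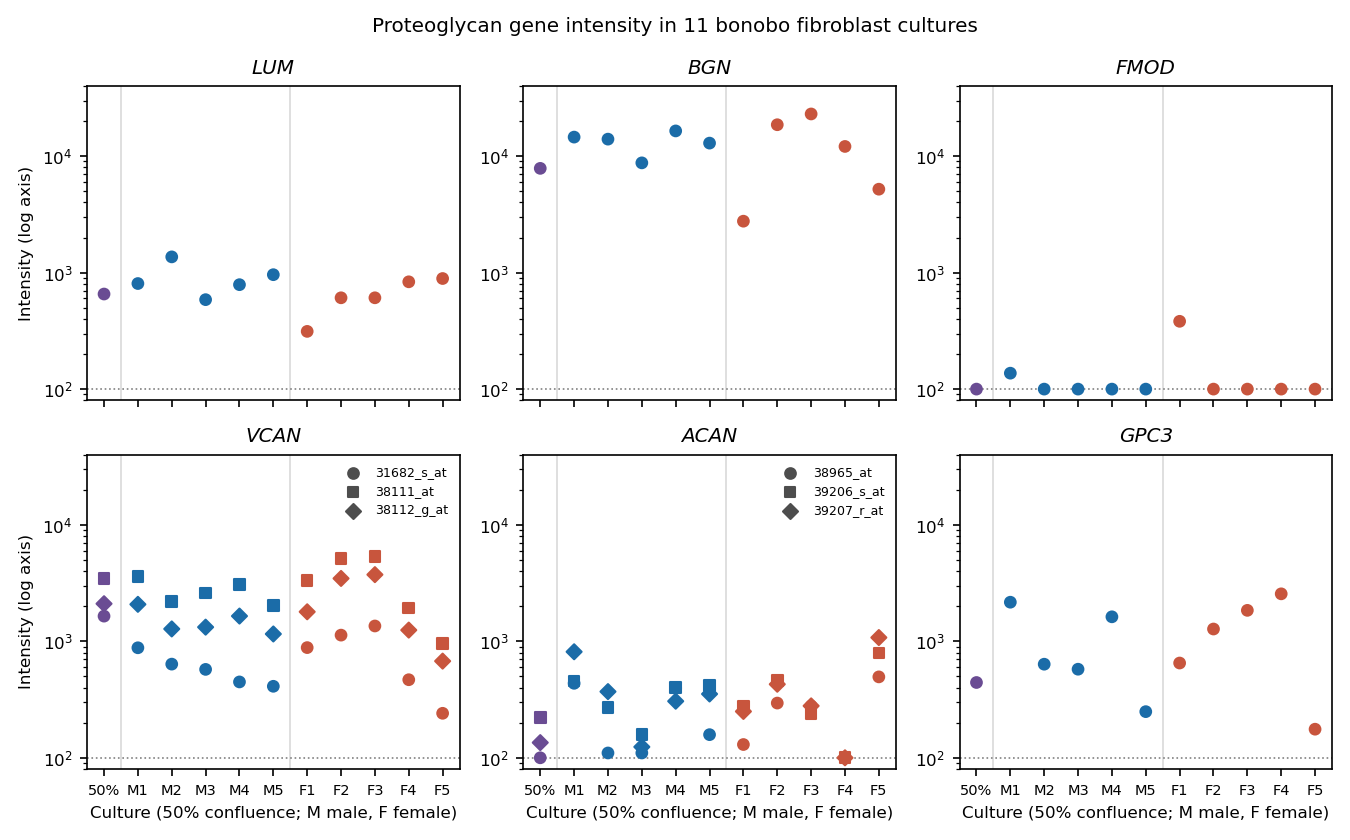
Intensity (log axis) of the 6 measured genes in the 50% confluence culture (purple), male lines 1 to 5 (blue) and female lines 1 to 5 (red), 1 point per array, with marker shapes for the probe sets of VCAN and ACAN and a dotted line at the floor of 100. FMOD is above the floor in male line 1 (137) and female line 1 (382) alone, and female line 5 has the lowest VCAN and GPC3 and the highest ACAN.

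Correlations between the genes depended on a few lines. They were computed for 10 pairs of the 5 genes above the floor in most lines, over 10 lines, and are given as descriptions. Values ran from -0.46 for LUM and VCAN (rho -0.63) to 0.66 for VCAN and GPC3 (rho 0.47). BGN and VCAN had r of 0.46 and rho of 0.65, with r of 0.75 when the lines farthest from the median of BGN, female lines 1 and 5, were left out. Without female line 1 alone, a choice made after seeing the data, r was 0.88 for BGN and VCAN and 0.70 for BGN and GPC3 (0.53 with all lines, rho 0.49). For VCAN and GPC3, r was 0.31 without female lines 3 and 5, so much of that relation rested on these lines. LUM and BGN, both lowest in female line 1, had r of 0.49 but rho of 0.02, and r of -0.21 without that line. ACAN and GPC3 had r of -0.34 (rho -0.31), and 0.41 without female lines 4 and 5, which lay at opposite ends for both genes. BGN and ACAN had r of -0.03 (rho 0.21), and 0.50 without female lines 1 and 5, and VCAN and ACAN had r of -0.17 (rho 0.01), and 0.52 without female lines 3 and 5. With the farthest lines left out, the 6 pairs among BGN, VCAN, ACAN and GPC3 had r above 0. Over all 10 lines, however, ACAN had r below 0 with BGN, VCAN and GPC3. The lines left out were those farthest on the first gene of a pair, so the values do not describe 1 set of lines. Without female line 1 and male line 2, LUM had r of -0.39 with BGN, -0.69 with VCAN, -0.37 with GPC3 and 0.34 with ACAN.

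The genes with the most similar patterns over the 10 lines were found among 5370 genes by Pearson r, as a description of these arrays. For BGN they were KBTBD2 (r = 0.96, rho = 0.92), the ribosome assembly gene BYSL (r = 0.96, rho = 0.90) and the DNA repair gene RAD51C (r = 0.94, rho = 0.87), each lowest in female line 1. For LUM they were the lipid transfer gene PITPNB (r = 0.94, rho = 0.94), the tetraspanin gene TSPAN5 (r = 0.91, rho = 0.84) and the nuclear pore gene NUP62 (r = 0.89, rho = 0.80), all with the lowest value in female line 1 and the highest in male line 2, as LUM had. For VCAN they were the glucocorticoid-induced gene TSC22D3 (r = 0.92, rho = 0.96), the thioredoxin reductase gene TXNRD1 (r = 0.91, rho = 0.90) and the autophagy receptor gene CALCOCO2 (r = 0.90, rho = 0.89). TSC22D3 ran from 206 in female line 5 to 845 in female line 3, the same end lines as VCAN. For ACAN they were the cold-inducible RNA-binding protein gene RBM3 (r = 0.87, rho = 0.87), the microfibril gene MFAP2 (r = 0.86, rho = 0.80) and RRBP1 (r = 0.84, rho = 0.90), and for GPC3 they were SPEF1 (r = 0.95, rho = 0.95), the splicing factor gene U2AF2 (r = 0.92, rho = 0.99) and the chitinase gene CHIT1 (r = 0.90, rho = 0.90). The top genes of so many candidates have high r by selection.

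The first comparison asked whether the proteoglycan genes differed between male and female lines at equal age. None of the 9 tested probe sets did by limma, at an adjusted p under 0.05, where 2 of 7333 probe sets on the array (0.0273%) were called. At an unadjusted p under 0.05 the members also gave 0, against 2.33% of all probe sets. BGN averaged 13340 ± 2866 in male lines and 12340 ± 8601 in female lines (SD, n = 5 each). Its log2 difference of 0.46 ± 0.45 (SE) had a 95% interval of -0.51 to 1.43, and it was 0.00 without female line 1. GPC3, the other X-linked member, averaged 1050 ± 808 in male lines and 1300 ± 943 in female lines (SD, n = 5 each), with an estimate of -0.23 ± 0.64 (SE; interval -1.59 to 1.13). LUM averaged 901 ± 292 in male lines and 651 ± 228 in female lines (SD, n = 5 each), and its interval of -0.15 to 1.16 around 0.50 was the one closest to excluding 0; the estimate was 0.26 without female line 1 and 0.28 without male line 2. The VCAN estimates were -0.10, -0.32 and -0.29 and those of ACAN 0.06, 0.09 and -0.14. With intervals this wide, differences of 2-fold in at least 1 direction could not be told from none for BGN, LUM, ACAN and GPC3.

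The second comparison asked whether the genes changed with the age of the animal. None of the 9 probe sets passed, and none of all 7333 did by limma (0% called, with 251 probe sets, 3.42%, at an unadjusted p under 0.05). The 3 VCAN probe sets were the only members at an unadjusted p under 0.05. In order of age, female lines 2, 3, 1, 4 and 5 (2, 4, 9, 20 and 20 years) read 5154, 5337, 3316, 1931 and 961 on 38111_at. Male lines 2, 1, 3, 4 and 5 (2, 4, 12, 17 and 19 years) read 2189, 3612, 2600, 3059 and 2023. The female values thus lay lower at greater age, while the male line aged 2 years lay close to the one aged 19 years.

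The estimated change of VCAN over 10 years was -0.69 ± 0.21 (SE) log2 on 38111_at (interval -1.13 to -0.25; limma, adjusted p = 0.999). It was -0.70 ± 0.20 on 38112_g_at (adjusted p = 0.999) and -0.84 ± 0.18 on 31682_s_at (adjusted p = 0.834). Ordered by their unadjusted limma p-values, 31682_s_at stood at rank 3 among 7333 probe sets. On that probe set the 5 lines aged 2 to 9 years read 637, 880, 883, 1130 and 1354. The 5 lines aged 12 years or more read 574, 448, 411, 468 and 241, a division by age chosen after the values were seen. The other VCAN probe sets did not divide the lines this way. On 38111_at, male line 2 (2 years) read 2189, below male line 3 (2600) and male line 4 (3059). On 38112_g_at the same lines read 1277, 1323 and 1647. The VCAN estimate was negative on all 3 probe sets under the 18 other settings where its size was read. Its adjusted p by limma was never below 0.288 under the 19 other settings where it was fitted. Its size rested in part on single lines: on 38111_at it was -0.44 without female line 5 and -0.91 without male line 2. The other members had intervals that included 0: BGN -0.37 (-1.04 to 0.30), GPC3 -0.63 (-1.57 to 0.30), LUM 0.11 (-0.35 to 0.56) and ACAN -0.24 (-1.08 to 0.59) per 10 years. The GPC3 slope was -0.15 without female line 5 and -1.17 without female line 4, and the BGN slope was -0.18 without female line 3, -0.20 without female line 2 and -0.23 without female line 5.

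**Figure D2:**
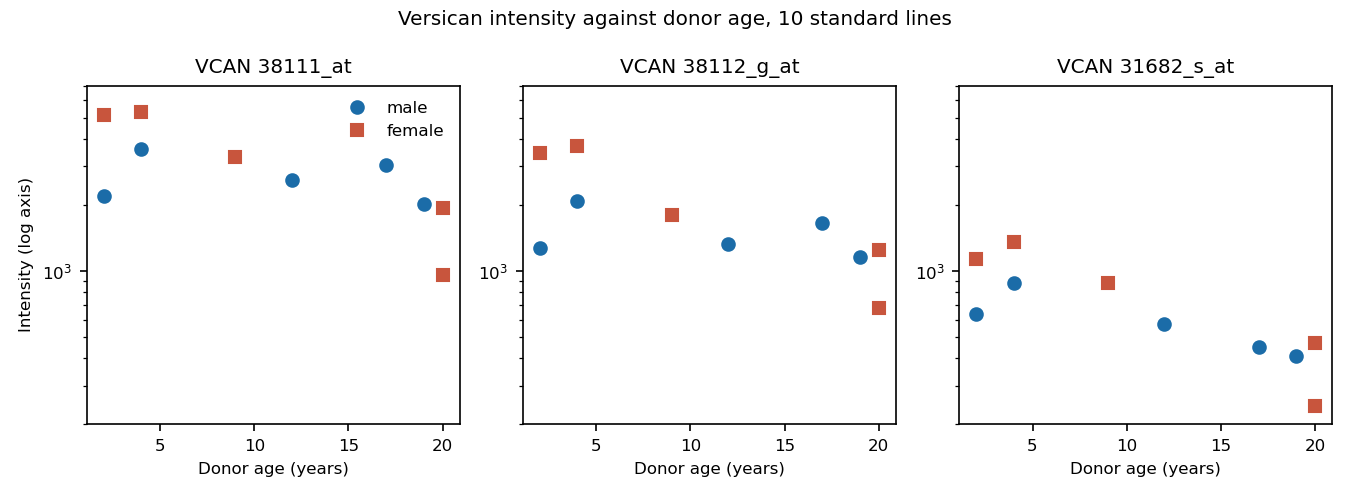
Intensity (log axis) of the 3 VCAN probe sets against donor age in years for 5 male (circles) and 5 female (squares) lines, 1 point per line. On 38111_at the female points run from 5154 at 2 years to 1931 and 961 at 20 years, while the male points run between 2023 and 3612.

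The age slope was also set against sex. On VCAN 38111_at the slope was -0.11 ± 0.25 (SE) log2 per 10 years in males and -1.14 ± 0.22 in females, a difference (males minus females) of 1.03 ± 0.33 (interval 0.32 to 1.74). The difference did not pass (limma, adjusted p = 0.949), nor did it on 38112_g_at (0.97 ± 0.33, adjusted p = 0.973) or 31682_s_at (0.60 ± 0.35, adjusted p = 0.973). Of all 7333 probe sets 1 was called (0.0136%), and 4.84% had an unadjusted p under 0.05, among them 2 of the 9 proteoglycan probe sets, both of VCAN. Slopes of GPC3 were -0.65 ± 0.69 in males and -0.62 ± 0.61 in females, and those of BGN -0.03 ± 0.47 in males and -0.63 ± 0.42 in females.

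**Figure D3:**
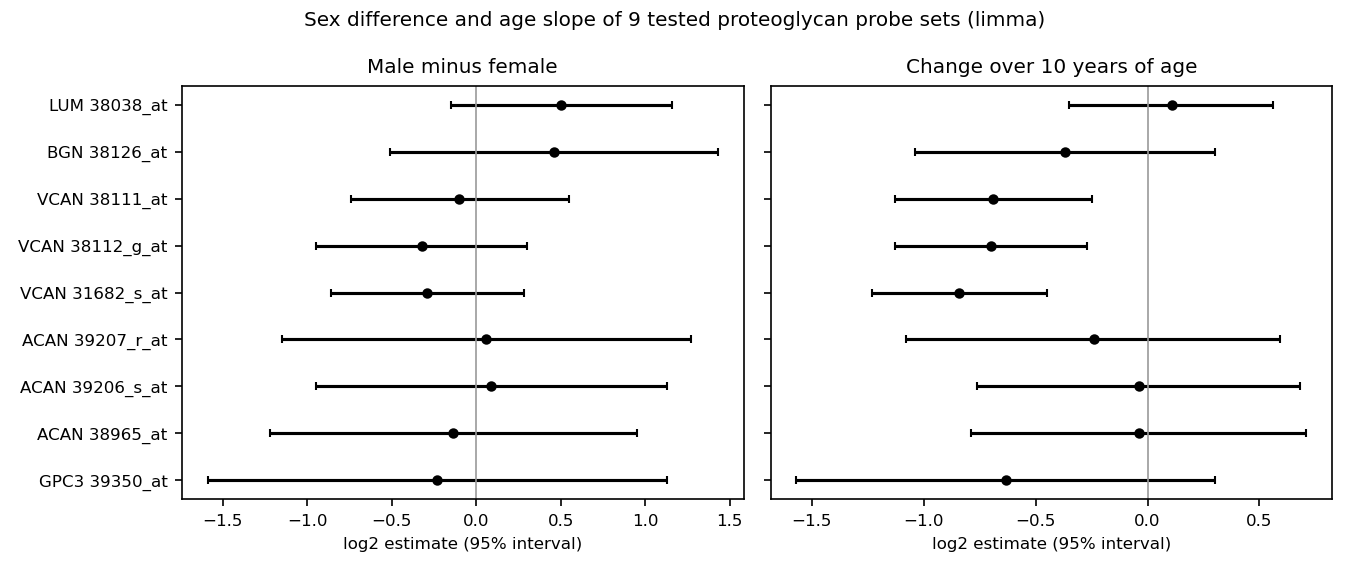
Estimates of limma with 95% intervals on the log2 scale for 9 proteoglycan probe sets, the male minus female difference on the left and the change over 10 years of age on the right. All intervals for sex include 0, and those for age exclude 0 for the 3 VCAN probe sets alone, none of which passed after adjustment over 7333 probe sets.

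The third comparison set the 50% confluence culture of male line 1 against its standard culture. ACAN and GPC3 were lower at 50% confluence by over 2-fold, BGN and LUM by less. Of the VCAN probe sets, 2 lay within 0.06 log2 of the standard culture and 1 was higher. There was 1 culture per state, so these differences have no test and no replicate check, and fewer cells making a transcript cannot be told apart from less transcript per cell. The array of the 50% confluence culture was also the one with the strong ribosomal RNA control signal given above, whose part in the differences was not tested. The lowest deposited intensity of that array was 90, as in male line 5, against 100 in the standard culture of male line 1. The part of this unequal lower limit was not tested. The smooth muscle gene MYH11 read 3997 at 50% confluence and 874 in the standard culture, while the 8 smooth muscle markers summed to 39168 and 38525 in the same order. The part of the smooth muscle markers was not tested either.

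GPC3 read 443 at 50% confluence and 2166 in the standard culture, 4.89-fold lower. ACAN read 135 at 50% confluence against 813 in the standard culture on 39207_r_at, 6.02-fold lower, a size that rests on a reading near the floor: the log2 difference was -2.59, and -2.02 with a floor of 200. On 39206_s_at it read 221 at 50% confluence against 456 in the standard culture, 2.06-fold lower. On 38965_at it was at the floor of 100 at 50% confluence, against 436 in the standard culture, so at least 4.36-fold lower; with a floor of 200 the log2 difference there was -1.12. All 4 probe sets thus pointed down, and all values at 50% confluence lay inside the range of the 10 standard lines, where female line 5 had still less GPC3 (176) and female line 4 was at the floor for ACAN. Of 8 proteoglycan probe sets that were tested and above the floor in both cultures, 3 were over 2-fold lower and 0 over 2-fold higher. The shares over 6028 probe sets on the array were 4.83% and 4.94%. These 3 count ACAN more than once: by gene, 2 of 5 members were over 2-fold lower and 0 higher, against 210 and 212 of 4497 genes.

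BGN read 7853 at 50% confluence and 14568 in the standard culture, 1.86-fold lower, and 2 of the 10 standard lines were lower still. LUM read 655 at 50% confluence and 806 in the standard culture, a log2 difference of -0.30. FMOD was at the floor at 50% confluence and read 137 in the standard culture.

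The VCAN probe sets disagreed between the cultures. Probe set 38111_at read 3455 at 50% confluence and 3612 in the standard culture, and 38112_g_at read 2102 and 2077 in the same order. Probe set 31682_s_at read 1645 at 50% confluence and 880 in the standard culture, 1.87-fold higher, and was the 1 member probe set to leave the range of the 10 standard lines, whose highest value was 1354. The ratio of 31682_s_at to 38111_at was 0.476 at 50% confluence and 0.146 to 0.291 in the 10 standard lines, so the signals of these probe sets differed unequally between the cultures. A similar ratio for ACAN, 39207_r_at over 39206_s_at, was 0.611 at 50% confluence and 0.767 to 1.78 in the standard lines. Which transcripts each probe set detects was not stated in the annotation used here. The ACTB 3′ to 5′ ratio was 0.669 at 50% confluence, below all standard lines, while that of GAPDH (0.815) lay inside their range. Male line 4, with the highest ACTB ratio (2.27), had the lowest VCAN ratio (0.146). Male line 1 and female line 5, next at 1.42 and 1.44, had VCAN ratios of 0.244 and 0.251, inside the range of the other lines. The part of RNA quality in these ratios was not tested.

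**Figure D4:**
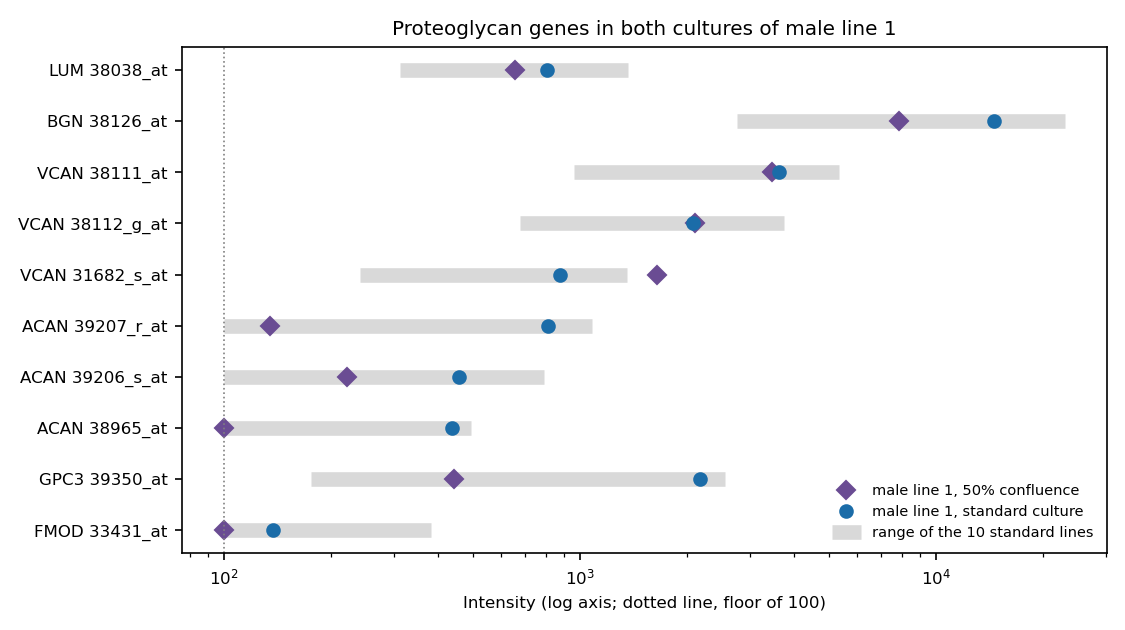
Intensity (log axis) of 10 proteoglycan probe sets in male line 1 at 50% confluence (purple diamonds) and in its standard culture (blue circles), over the range of the 10 standard lines (grey bars). GPC3 and all 3 ACAN probe sets lie lower at 50% confluence, and VCAN 31682_s_at (1645) lies above the grey bar.

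Genes that act with the proteoglycans were then read from 6 lists. No gene of the lists was called for sex or age by limma, and 1 was called for sex by age, the collagenase gene MMP1 in the list of proteases and inhibitors (adjusted p = 0.0458). That call was lost under 14 of 18 other settings, with adjusted p between 0.00142 and 0.736 over the 18. Of the other small leucine-rich proteoglycan genes, 2 of 12 were tested. PRELP, which encodes an anchor between basement membrane and collagen, read 808 at 50% confluence and 252 in the standard culture, 3.21-fold higher, and ran from 100 in male line 4 to 1541 in female line 1. ECM2 was also highest in female line 1 (1086) and lowest in female line 5 (203).

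Of 30 genes listed under other proteoglycan core proteins, 18 were tested. Of the 16 above the floor in both cultures, 11 were lower and 5 higher at 50% confluence, against 2235 and 2245 of 4497 genes. Over 2-fold, 2 were lower and 1 higher, against 210 and 212 of 4497 genes. The list's median was -0.31 log2, against 0.00 over all genes. GPC4, a glypican gene like GPC3, read 171 at 50% confluence and 400 in the standard culture, and COL18A1 read 154 and 327 in the same order. The syndecan gene SDC1 went the other way, with 2659 at 50% confluence and 1063 in the standard culture, 2.50-fold higher and above its range in the 10 standard lines (897 to 1569). On this list CSPG4, TGFBR3, SDC4 and BCAM had the largest SD between lines. BCAM is a cell adhesion molecule gene rather than a proteoglycan gene. The SD was 1.20 log2 for CSPG4, which read 100 in male line 4 and up to 1378 in the others.

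For the enzymes that build and sulfate the sugar chains, 27 of 54 genes were tested, and 10 of 23 were lower and 13 higher at 50% confluence (median 0.26), with 2 over 2-fold lower and 1 over 2-fold higher. Over all 4497 genes above the floor in both cultures, 2235 were lower and 2245 higher, 210 over 2-fold lower and 212 over 2-fold higher. CHSY1, which extends chondroitin chains, read 251 at 50% confluence and 668 in the standard culture. The sulfatase gene SULF1 read 211 and 504 and the first enzyme of chain attachment, XYLT1, 157 and 310, in the same order. The sulfotransferase gene CHST2 read 826 at 50% confluence and 386 in the standard culture. Among the lines, female line 1 had the lowest CHSY1 (253) and XYLT1 (132), beside its low BGN and LUM.

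The hyaluronan list had 9 of 25 genes tested, of which 5 were lower and 3 higher at 50% confluence (median -0.16 log2). Of these 9 genes, 2 were over 2-fold lower and 0 over 2-fold higher, against 210 and 212 of 4497 genes. The synthase gene HAS2 read 411 at 50% confluence and 937 in the standard culture, and the receptor gene CD44 read 1396 and 2547 in that order. Both were lowest in female line 1, HAS2 at the floor of 100 and CD44 at 791. HAS2 was highest in female line 5 (1344), the line with the highest ACAN. The matrix glycoprotein gene TNC, which binds versican and aggrecan relatives, read 427 at 50% confluence and 2503 in the standard culture. CEMIP went the other way, with 9342 at 50% confluence and 6139 in the standard culture.

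Of proteases and inhibitors, 10 of 24 genes were tested, with 4 of 10 over 2-fold lower at 50% confluence and 0 over 2-fold higher, against 210 and 212 of 4497 genes. They were MMP1, the membrane protease gene MMP14 (1378 at 50% confluence, 3682 in the standard culture), the procollagen protease enhancer gene PCOLCE (1371 and 3636) and MMP3 (109 and 239). The inhibitor gene TIMP3, whose product restrains aggrecan-cleaving proteases, read 13262 at 50% confluence and 7667 in the standard culture, and was lowest in female line 1 (960) and highest in female line 5 (11053). Of ligands and partners, 21 of 30 were tested, with 4 of 20 over 2-fold lower and 1 over 2-fold higher at 50% confluence, against the same 210 and 212 of 4497. TGFB1, a growth factor that binds biglycan and decorin, read 1166 at 50% confluence and 3925 in the standard culture, and the fibrillar collagen gene COL1A1 read 16515 and 15489 in that order.

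Female line 1 and male line 4 stood at the end of the range for many genes over the array as a whole. Female line 1 had the lowest value of all 10 lines for 12.6% and the highest for 11.8% of 5370 genes, and male line 4 for 10.6% and 19.1%, where the other lines had 4.86% to 8.96% lowest and 6.52% to 12.3% highest. The smooth muscle gene MYH11 read 6163 in female line 1, against 100 to 1567 in the other standard lines. The summed intensity of 8 smooth muscle markers in that line, 39422, was the highest of the female lines (22939 to 39422). It lay inside the range of the male lines (10686 to 59914). Of these markers 3 were above the floor in all 11 cultures and DES was at the floor throughout. Their part in the BGN, LUM and FMOD values was not tested.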

How the data were processed

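RNA of 11 fibroblast cultures had been hybridised to a human Affymetrix array of 12625 probe sets. The authors deposited a linear intensity for each probe set and array; how they summarised and scaled the probes was not stated in the labels or file headers. The lowest deposited intensity was 100, or 90 in male line 5 and the 50% confluence culture, so all values were raised to a floor of 100 before log2 was taken. After trimming 2% at each end, array means ran from 405.3 to 419.5, and no further scaling was applied. Human probes can lose signal on bonobo sequence. The number of arrays limits the precision.

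Gene symbols came from the platform annotation of 2016: 10943 probe sets had 1 symbol, 545 several and 1070 none. After removal of 67 control probe sets, probe sets reading over the floor on 5 or more of 11 arrays, 7333 in number, were tested; where a gene had several, the one with the highest mean log2 stood for it. Sex and age were fitted jointly over the 10 standard lines in R 4.3.3 by limma 3.58.1, using lmFit and a trended eBayes, and their product in a further fit, two-sided, with Benjamini-Hochberg adjustment over all 7333. P-values measure the spread between lines, with 1 culture each. Harvest states were compared without a test. Genes named were all member probe sets, the 3 genes most like each member by Pearson r, and in each list up to 4 of the largest harvest difference, up to 4 of the largest SD and any called. Members, lists and tests were chosen with earlier results of these data known. Alternatives were other scalings, floors, filters, variance models and covariates, and leaving out each line. Data were also simulated from these 7333 probe sets. The sex fit found 37% of the probe sets given a true difference of 1 log2 and 90% of those given 2 log2. The age fit found 79% and 100% for changes of those sizes over 10 years. Many probe sets, picked at random, were changed at once, which eases the adjusted threshold relative to the real data, where few were called. The tested members also vary more (SD 0.56 to 1.32 log2) than the median gene (0.43). These shares are therefore not the power for the members. No sequence tables were used here.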

Additional observations from a re-analysis of the deposited data

Results flagged for a closer look

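In 3 of 30 groups of values examined, 1 line stood apart from the rest, and all 3 were of FMOD, whose other values sat at the floor. A single reading above a row of tied values stands apart whatever its size. The usual chance rate of about 1 group in 20 therefore does not apply to these groups. The flags for the female lines and for all 10 standard lines also share 1 value. Among the male lines, FMOD read 137 in male line 1 and 100 in the other 4. Among the female lines, and among all 10 standard lines, it read 382 in female line 1, where the other standard lines read 100 to 137.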

How the results depend on the processing

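No paired analysis was possible because line numbers were given in accession order and pair nothing. Of the member probe sets, 0 passed for sex or age under the 19 other settings or for sex by age under 18, wherever they were fitted; FMOD was fitted under 1 of them, all probe sets. The lowest adjusted p was 0.288, for VCAN and age. Calls for sex over all probe sets numbered 2 as reported, 3 with no intensity trend, array weights or age left out, 1 with a floor at 200, a pseudocount of 50 or all probe sets, and 0 among probe sets above the floor in all 11 arrays; leaving out a line gave 1 to 2. Calls for age, 0 as reported, were 1 with all probe sets. The 1 call for sex by age, MMP1, was lost (0) under quantile normalization, median centring, all probe sets, no intensity trend and array weights, and leaving out a line gave 0 to 1. The VCAN sex by age difference, recomputed as a choice made after seeing the data, was 0.73 to 1.31 on 38111_at over 18 settings. Probe sets over 2-fold apart by harvest state numbered 589 in both directions together, and 314 with a floor at 200, where the difference of ACAN 38965_at was -1.12 log2 in place of -2.12.

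With all lines kept, the log2 sex differences that changed sign were those of ACAN 39206_s_at (-0.04 with a floor at 200, -0.13 with array weights) and 39207_r_at (-0.08 with array weights). Leaving out 1 line gave 0.26 to 0.65 for LUM, 0.00 to 0.76 for BGN, -0.38 to 0.17 for VCAN 38111_at, -0.56 to -0.08 for VCAN 38112_g_at, -0.52 to -0.12 for VCAN 31682_s_at, -0.79 to 0.38 for GPC3, and for ACAN -0.47 to 0.23 (38965_at), -0.38 to 0.53 (39206_s_at) and -0.38 to 0.66 (39207_r_at). The age slopes of ACAN were 0.04 for 38965_at and 0.14 for 39206_s_at with a floor at 200. Leaving out 1 line gave age slopes of -0.01 to 0.30 for LUM, -0.55 to -0.18 for BGN, -1.17 to -0.15 for GPC3, -0.91 to -0.44 for VCAN 38111_at, -0.91 to -0.49 for 38112_g_at, -0.99 to -0.64 for 31682_s_at, -0.36 to 0.25 for ACAN 38965_at, -0.42 to 0.37 for 39206_s_at and -0.77 to 0.14 for 39207_r_at. The cause of these changes was not tested.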
